A study of Mus musculus with 20 samples.

Results

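Genes that encode subunits, activators and assembly factors of the proteasome were followed across 20 RNA-seq libraries. These were of mouse skeletal muscle and of resident macrophages and infiltrating cells sorted from it. The genes were taken as every gene symbol made of Psma to Psmg and a number that had a mean of at least 1 FPKM in its table. FPKM are fragments per kilobase of transcript, scaled to the mapped fragments of a library, so levels of different genes are compared per length. Of 48 such symbols, 46 passed in each of the 4 tables, out of 24413 distinct gene names. Psma8, a core subunit known from testis, and Psmb11, the core subunit of thymic epithelium, fell below the limit in all 4 tables and are not counted among the 46.

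Resident macrophages came from uninjured muscle of male mice with a green fluorescent protein (GFP) reporter, Cx3cr1-GFP, and were sorted as MERTK+ and F4/80+ into 4 gates by surface MHCII and GFP, with 1 library per gate. Infiltrating cells were CD11B+ GFP+ cells without LY6G or SIGLECF, sorted from the damaged tibialis anterior of the wild-type partner of female parabiotic pairs, in which the circulation of a wild-type and a GFP mouse is joined. Only cells that came from the GFP partner carry the label. Days 2 and 6 after injury had 1 library each, and day 4 had 2. The mdx muscle was the tibialis anterior of female DMDmdx mice, which lack dystrophin in all 6 libraries, at 8 months of age. For 6 of those months 3 of the mice had eaten control diet and 3 had eaten PLX73086. In 2 control libraries and 1 PLX73086 library the tissue was from DMDmdx mice that also carried PDGFRaEGFP. Injured muscle came from male C57BL/6J mice that had eaten control or PLX73086 diet for 3 weeks and then regular food for 3 days before the tibialis anterior was damaged. It was taken at 12 h (1 library per diet) or at 18 h (2 libraries per diet). PLX73086 inhibits CSF1R, the receptor on which macrophages depend. It was mixed into AIN-76A food (200 mg in each kg), which without the drug was the control diet. Each whole-muscle library was 1 tibialis anterior, and the labels name different mice.

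The proteasome is the barrel-shaped protease that degrades ubiquitin-tagged proteins. Its core has outer rings of alpha subunits (Psma) and inner rings of beta subunits (Psmb), of which Psmb5, Psmb6 and Psmb7 cut peptide bonds. Interferon gamma induces Psmb8, Psmb9 and Psmb10, which take their places in newly built cores and give the immunoproteasome, the form that is abundant in leukocytes and feeds peptides to MHC class I. Psme1 and Psme2 form the PA28 activator, which interferon gamma also induces. The regulatory particle recognises and unfolds substrates with its ATPases (Psmc) and non-ATPase subunits (Psmd). In muscle the proteasome carries out much of the protein loss of atrophy, downstream of muscle ubiquitin ligases such as Trim63.

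The promoters of the genes on which the results turn are shown because their letters can be read for motifs of the interferon and antioxidant pathways. RefSeq promoter windows (250 bases before and 50 after the start, GRCm38.p6) were at hand for 39 of the 46 genes. Psmb9 and Tap1, which encodes a subunit of the peptide transporter of class I presentation, start 225 bases apart on opposite strands, and the first sequence is all that lies between them. It is given on the strand of Psmb9, at chr17:34187331-34187555, with CCAAT, here on the other strand, in capitals. The second is the 120 bases before Psmb8 (chr17:34198075-34198194, plus strand) with the interferon gamma-activated motif TTCNNNGAA in capitals. The third is the first 30 bases of Psme1 (chr14:55578494-55578523, plus strand) with the interferon response motif, a pair of GAAA repeats set 2 bases apart, on the other strand, in capitals. The last is the 100 bases before the constitutive Psmb5 (chr14:54617996-54618095, minus strand) with the antioxidant response motif TGACNNNGC in capitals.
Psmb9 to Tap1: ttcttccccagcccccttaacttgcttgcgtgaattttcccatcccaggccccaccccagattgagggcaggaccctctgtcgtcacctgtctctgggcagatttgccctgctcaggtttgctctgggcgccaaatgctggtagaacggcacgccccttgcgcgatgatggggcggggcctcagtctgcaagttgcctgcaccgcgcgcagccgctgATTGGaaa
Psmb8: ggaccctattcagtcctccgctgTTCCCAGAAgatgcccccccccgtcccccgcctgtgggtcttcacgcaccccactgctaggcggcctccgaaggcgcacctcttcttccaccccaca
Psme1: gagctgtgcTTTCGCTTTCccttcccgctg
Psmb5: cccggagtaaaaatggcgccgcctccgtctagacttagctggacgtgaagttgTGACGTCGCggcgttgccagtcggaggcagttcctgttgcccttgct

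Searched on both strands, TTCNNNGAA stood in the windows of 3 of the 39 genes (Psmb8, Psmd2 and Psmg1), or 7.69%, and in 8.30% of all 32851 mouse windows. The paired GAAA motif stood in 5 of 39 (Psme1, Psmb3, Psmd4, Psmd9 and Psmg4), or 12.8%, against 3.44% of all windows. TGACNNNGC stood in 6 of 39 (Psmb5, Psmb6, Psmc6, Psmd9, Psmd12 and Psme4), or 15.4%, against 12.4%, and CCAAT in 13 of 39, or 33.3%, against 37.4%. The windows of Psmb9 and Psmb10 held none of the first 3 motifs, which says only that these letters are not in those windows. A match is a description of the letters and not a site of binding.

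Depth is known only for the infiltrating libraries, which list between 25953400 and 34655400 alignments each. Markers matched the labels of the sorted cells: 10 macrophage markers summed to 12799 to 14972 FPKM in resident gates and to 7723 to 15801 FPKM in infiltrating cells, with none of them at 0. Resident gates also held 208 to 323 FPKM of endothelial, 180 to 293 of muscle fibre and 175 to 452 of neutrophil markers, although LY6G+ cells were gated out. Smooth muscle and pericyte markers summed to 203 to 395 FPKM there, and fibro-adipogenic markers to 158 to 255 FPKM. Infiltrating cells held 20.3 to 222 FPKM of muscle fibre and 31.5 to 154 of dendritic cell markers. They also held 35.5 to 118 FPKM of fibro-adipogenic and 29.2 to 90.3 of T and NK cell markers. In whole muscle, 12 muscle fibre markers summed to 137173 to 164362 FPKM in mdx and 42234 to 131498 FPKM in injured muscle.

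The makeup of the proteasome transcripts differed between the sorted cells and whole muscle. Psmb8, Psmb9, Psmb10, Psme1 and Psme2 held 1.45% to 2.17% of the summed FPKM of the 46 genes in mdx muscle, 3.89% to 10.0% in injured muscle, 13.5% to 18.3% in resident gates and 24.98% to 30.9% in infiltrating cells. The 4 ranges did not overlap. The tables had been scaled separately, but these are shares within a library. No test was made between tables.

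The balance of catalytic subunits was read from the ratio of each immunoproteasome subunit to the constitutive subunit it replaces. Psmb8 was 3.16 to 4.58 times the FPKM of Psmb5 in infiltrating cells and 1.22 to 1.96 times in resident gates. It was 0.180 to 0.683 of Psmb5 in injured muscle and 0.0124 to 0.0467 in mdx muscle. Psmb10 exceeded Psmb7 in infiltrating cells only, by 1.06 to 1.23 times, and was 0.405 to 0.640 of it in resident gates, 0.103 to 0.381 in injured and 0.0182 to 0.0409 in mdx muscle. Psmb9 stayed below Psmb6 in all 20 libraries, with a ratio of 0.511 to 0.893 in infiltrating cells, 0.429 to 0.600 in resident gates, 0.0522 to 0.282 in injured muscle and 0.00735 to 0.0233 in mdx muscle. The order of the 4 kinds of sample was thus the same for Psmb8 and Psmb10, while for Psmb9 the ranges of infiltrating cells and resident gates overlapped.

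**Figure D1:**
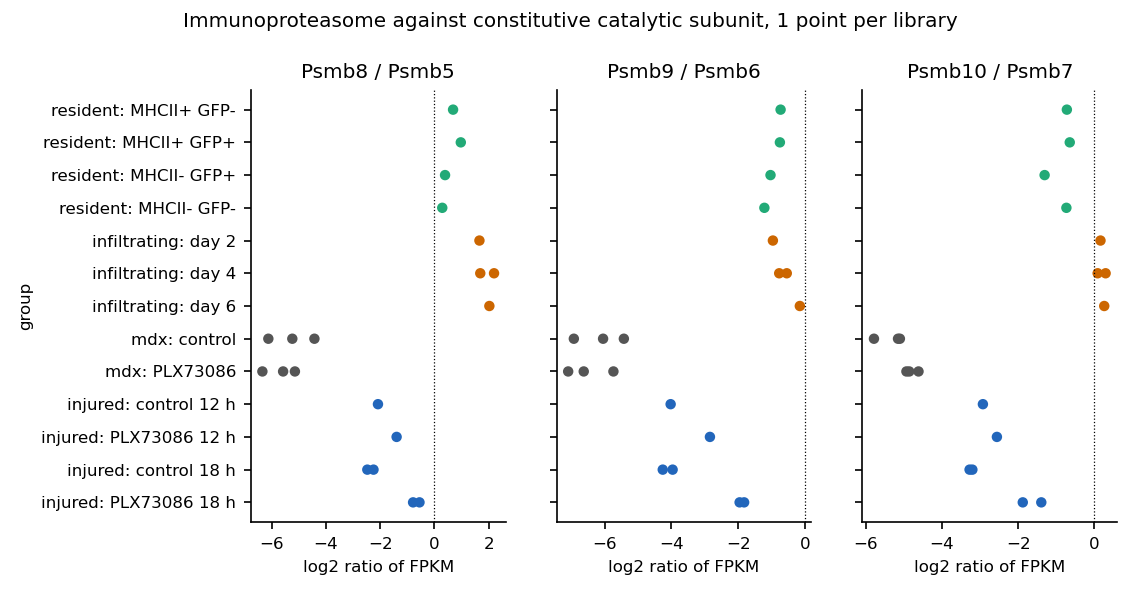
Log2 ratio of FPKM of each immunoproteasome subunit to the constitutive subunit it replaces (x axis), with 1 point per library and 1 row per group. Ratios of Psmb8 to Psmb5 lie above 0 (dotted line) in all 8 sorted libraries and between -6.34 and -0.55 in the 12 whole-muscle libraries.

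Among the activators, Psme1 was 2.26 to 3.24 times the median of the 14 constitutive core subunits in infiltrating cells and 1.60 to 2.50 times in resident gates, and was the most abundant of all 46 genes in both (mean of 241 and 144 FPKM). In injured muscle it was 0.394 to 0.797 of that median and in mdx muscle 0.196 to 0.289. Psme2, its partner in PA28, ran at 1.36 to 1.71, 0.778 to 1.01, 0.316 to 0.694 and 0.158 to 0.247 in the same order. Psme4, an activator that works without ATP or ubiquitin, was 0.270 to 0.509 of the core median in mdx muscle, 0.173 to 0.305 in resident gates, 0.0750 to 0.208 in injured muscle and 0.0696 to 0.136 in infiltrating cells. Psmf1, an inhibitor of the core in vitro, was among the 3 least abundant genes in every table, with means of 5.42 to 7.11 FPKM.

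Constitutive core transcripts were spread further apart in muscle than in the sorted cells. The highest of the 14 exceeded the lowest by 8.96 to 12.4 times in mdx muscle, 5.24 to 7.89 times in injured muscle and 2.96 to 4.49 times in the 8 sorted libraries. The highest was Psmb7 in all 6 mdx libraries, Psmb4 in all 6 injured libraries, Psma7 in the 4 resident gates and Psmb6 in the 4 infiltrating libraries. Psma5 was the lowest in 16 of the 20 libraries. Beside them, Psmb7, Psmb4 and Psmb6 led mdx muscle with means of 378, 255 and 206 FPKM, and Psmb4, Psmd8 and Psmb7 led injured muscle with 433, 385 and 333 FPKM. Psmb9 and Psmb8 were the lowest of the 46 in mdx muscle (2.77 and 4.48 FPKM). The assembly factors among the 46 were Psmg1 to Psmg4, Psmd5, Psmd9 and Psmd10. They had medians of 6.58 to 8.72 FPKM in infiltrating, 8.54 to 10.3 in resident, 11.4 to 13.99 in mdx and 20.2 to 30.9 in injured libraries. In that order the core median was 67.0 to 112, 70.6 to 72.1, 130 to 156 and 142 to 229 FPKM. The tables had been scaled separately. Without the 5 immunoproteasome genes, the order of the other 41 by mean FPKM had a rank correlation (Spearman) across genes of 0.78 to 0.94 between pairs of tables, and with them of 0.42 to 0.90. Genes are not independent replicates, and the libraries of a table share their scaling.

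**Figure D2:**
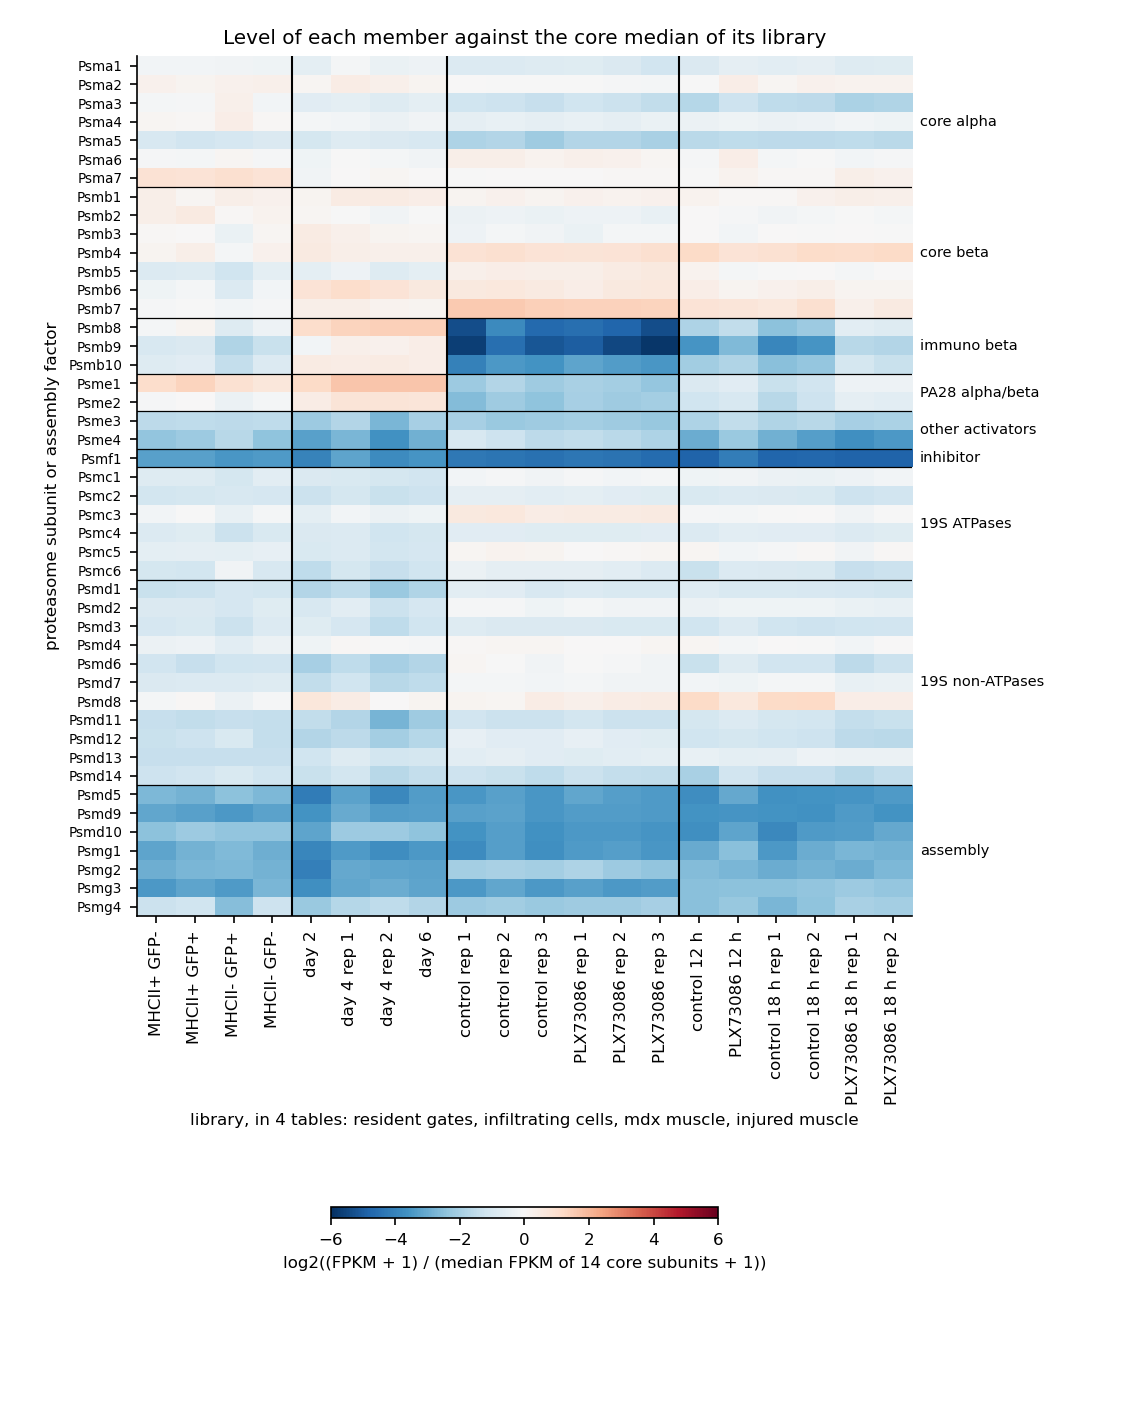
Colour gives log2((FPKM + 1) / (median FPKM of the 14 constitutive core subunits + 1)) for the 46 genes (rows, grouped by role) in the 20 libraries (columns, 4 tables parted by vertical lines). The rows of Psmb8, Psmb9 and Psmb10 are darkest blue in mdx muscle and palest or red in the sorted cells, and in injured muscle they are palest in the PLX73086 libraries at 18 h.

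The first comparison asked how prior inhibition of CSF1R altered the early response of muscle to injury. At 18 h the 5 immunoproteasome genes stood 1.80 to 4.07 times higher in muscle of mice that had eaten PLX73086, while the 14 constitutive core subunits stood at 0.756 to 1.17 of control. Psmb9 read 68.1 and 65.5 FPKM in the 2 PLX73086 libraries and 14.4 and 18.4 FPKM in the 2 controls at 18 h, and 21.9 against 17.8 FPKM at 12 h. Psmb8 read 140 and 133 FPKM against 40.9 and 47.7 FPKM at 18 h, and 49.5 against 59.0 FPKM at 12 h. Both PLX73086 libraries at 18 h thus lay above every other injured library for these genes, and the 12 h PLX73086 library was above its control for Psmb9 and below it for Psmb8.

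Psmb10 showed the same arrangement, with 104 and 87.8 FPKM against 39.0 and 44.4 FPKM at 18 h, and 39.4 against 50.4 FPKM at 12 h. Psme1 read 174 and 179 FPKM against 90.3 and 101 FPKM at 18 h, and 86.9 against 120 FPKM at 12 h. Psme2 read 151 and 146 FPKM against 72.4 and 92.9 FPKM, and at 12 h 72.7 against 95.3 FPKM. For all 3 genes the diets were apart at 18 h and the single 12 h pair ran the other way. Psme2b, a near copy of Psme2 between which fragments could be split, read 10.6 and 8.25 FPKM against 4.42 and 3.55 FPKM at 18 h, and 3.34 against 4.29 FPKM at 12 h.

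The constitutive partners were not higher with the drug diet. Psmb5 read 204 and 229 FPKM in PLX73086 muscle against 227 and 226 FPKM in controls at 18 h, so the diets overlapped, and 130 against 250 FPKM at 12 h. Psmb6 read 242 and 255 FPKM against 277 and 288 FPKM at 18 h, and 158 against 289 FPKM at 12 h. Psmb7 read 273 and 323 FPKM against 358 and 429 FPKM at 18 h, and 231 against 382 FPKM at 12 h. The ratio of Psmb8 to Psmb5 was therefore 0.683 and 0.580 against 0.180 and 0.211 at 18 h, and 0.381 against 0.236 at 12 h. For Psmb9 over Psmb6 these ratios were 0.282 and 0.256 against 0.0522 and 0.0640, and 0.139 against 0.0614, and for Psmb10 over Psmb7 they were 0.381 and 0.272 against 0.109 and 0.103, and 0.170 against 0.132. All 3 ratios were higher with PLX73086 at both hours, and they do not depend on the scaling of a library.

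**Figure D3:**
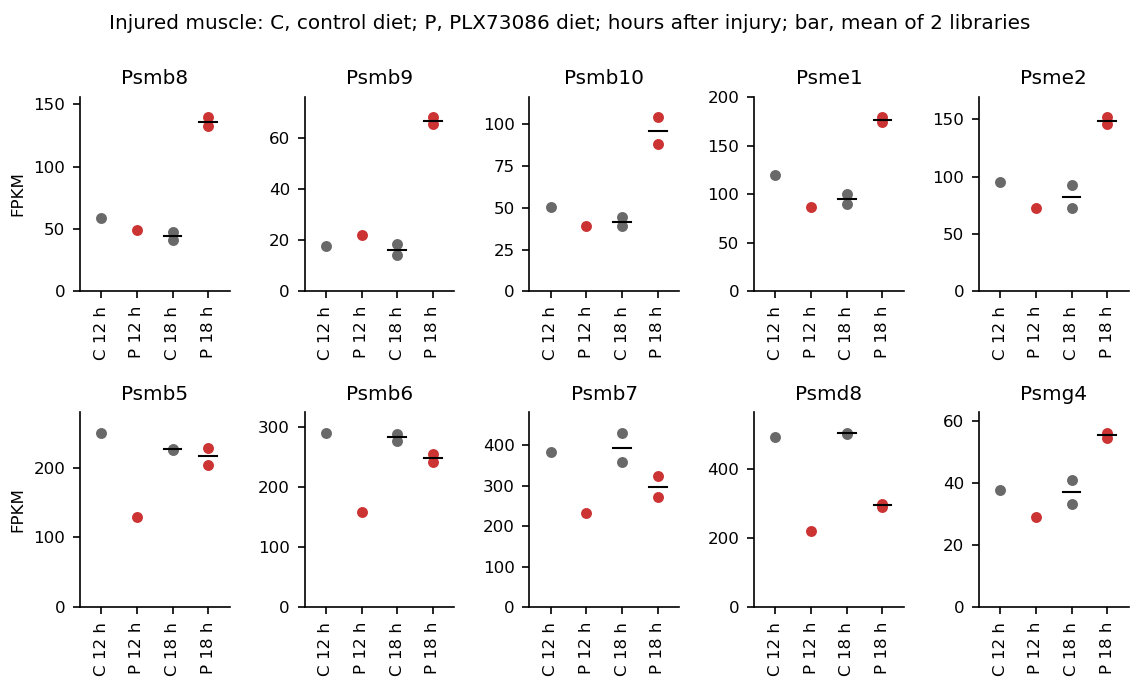
FPKM (y axes, from 0) of 10 proteasome genes in each injured library, by diet and hour (x axis), with a bar for the mean of 2 libraries. The 2 PLX73086 libraries at 18 h lie apart from the rest for Psmb8, Psmb9, Psmb10, Psme1, Psme2 and Psmg4, while for Psmd8 all 3 PLX73086 libraries lie at 220 to 299 FPKM and all 3 controls at 494 to 504 FPKM.

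The test for diet held both hours in 1 model (limma on log2(FPKM + 1), with p-values adjusted by Benjamini-Hochberg over 11578 genes and a threshold of 0.05). It called 1 of the 46 genes higher and 1 lower, or 2.17% each way, when 5.42% of all genes tested were called higher and 6.23% lower. Psmb9 rose by a log2 change of 1.41 (SE 0.34, adjusted p = 0.0433), with the PLX73086 library above its control at both hours. Psmd8, a subunit of the lid of the regulatory particle, fell by 0.90 on the log2 scale (SE 0.17, adjusted p = 0.0255). It read 292 and 299 FPKM against 503 and 504 FPKM at 18 h and 220 against 494 FPKM at 12 h. The diets were apart at both hours upwards for 2 of 46 genes, or 4.35%, and downwards for 16, or 34.8%, against 20.3% and 23.3% of all genes. The other 4 immunoproteasome genes had positive changes that missed the threshold: 0.98 for Psmb8 (adjusted p = 0.123), 0.67 for Psmb10 (adjusted p = 0.197), 0.44 for Psme2 (adjusted p = 0.321) and 0.44 for Psme1 (adjusted p = 0.338). The error of this model also holds any difference of the diet effect between hours, as 12 h had 1 library per diet. For Psmb8 the SE was 0.36 in this model and 0.13 at 18 h alone. The calls of Psmb9 and Psmd8 were also lost on leaving out any of the 4 libraries of 18 h (adjusted p of 0.129 to 0.153 and 0.0812 to 0.107) and without the filter on low values (0.257 and 0.103).

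Limited to the 4 libraries of 18 h, the same test called 6 of 46 genes higher, or 13.04%, and 2 lower, or 4.35%, against 10.0% and 9.02% of all genes. Those higher were Psmb9 (log2 change 1.97, SE 0.15, adjusted p = 0.00480), Psmb8 (1.60, SE 0.13, adjusted p = 0.004905), Psmb10 (1.18, SE 0.14, adjusted p = 0.00920), Psme1 (0.88, SE 0.12, adjusted p = 0.0123), Psme2 (0.85, SE 0.16, adjusted p = 0.0226) and the assembly chaperone Psmg4 (0.58, SE 0.14, adjusted p = 0.0428). Psmd8 (-0.77, SE 0.14, adjusted p = 0.0214) and Psmc6, an ATPase of the regulatory particle (-0.48, SE 0.12, adjusted p = 0.0454), were lower. All 5 immunoproteasome genes were thus called at 18 h and 1 of the other 41 rose. In 12 of the 46 genes, or 26.1%, both PLX73086 libraries of 18 h lay above both controls, and in 19, or 41.3%, below them, against 32.4% and 32.6% of all genes.

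Away from the immunoproteasome, Psmd8 was the one gene called in the model with both hours on FPKM as deposited. It was lower on the common sum too (log2 change -0.54, adjusted p = 0.0272). Over the other genes as a whole the sign of the change depended on the scaling. In the model with both hours, 36 of the other 41 genes had a negative change, with a median of -0.22, and the median over all genes tested was -0.02, but with each library rescaled to a common sum only 8 of the 41 were negative. On FPKM as deposited, negative changes were those of 7 of 7 Psmb core subunits (median -0.29), 6 of 6 Psmc ATPases (-0.34) and 11 of 11 non-ATPase subunits (-0.34), but of 3 of 7 assembly factors (median 0.09). At 12 h the PLX73086 library had a core median of 142 FPKM when the other 5 had 218 to 229 FPKM, and its FPKM summed to 486206 over all genes when those of the others summed to 560932 to 749788. At 18 h alone, 26 of 41 were negative, with a median of -0.09. On the common sum, the median change of all genes moved to 0.31 and that of the 46 to 0.14, and 8 of the 46 were called higher and 1 lower, beside 2175 and 265 of all genes (628 and 721 on FPKM as deposited). These 8 were Psmb8, Psmb9, Psmb10, Psme1, Psme2, Psmg1, Psmg4 and Psmd10, the last 3 being assembly factors, and Psmd8 was the one lower. The median of the 46 minus that of all genes was -0.20 on FPKM and -0.17 on the common sum.

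Whole muscle holds many cell types, so a change in the number of cells of a type and a change in RNA per cell cannot be told apart. Markers moved with the diet beside these genes. The 10 leukocyte markers, none of them at 0, summed to 1780 and 1849 FPKM in PLX73086 muscle and 729 and 879 FPKM in controls at 18 h, and to 1188 against 1142 FPKM at 12 h. The 8 monocyte markers summed to 1011 to 1039 FPKM in the 3 PLX73086 libraries and 297 to 365 FPKM in the 3 controls, and 10 macrophage markers to 1438 to 2965 FPKM and 1251 to 1661 FPKM. Muscle fibre markers summed to 42234 to 57705 FPKM with PLX73086 and 96627 to 131498 FPKM in controls, apart at both hours as Psmd8 was. The part of these markers in the changes of the proteasome genes was not tested.

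The difference of the diet effect between hours was tested with 4 group means, the single 12 h libraries being assumed to vary like those of 18 h. No proteasome gene passed at an adjusted p of 0.05 in limma, where 0.0605% of all genes did, and 23 of 46 had an unadjusted p under 0.05 against 2701 of all 11578. The 5 immunoproteasome genes had the largest differences: Psmb8 1.85 (SE 0.22, adjusted p = 0.0886), Psmb9 1.68 (SE 0.25, adjusted p = 0.0922), Psmb10 1.53 (SE 0.24, adjusted p = 0.0949), Psme1 1.34 (SE 0.22, adjusted p = 0.0950) and Psme2 1.24 (SE 0.27, adjusted p = 0.111). The most negative were Psme4 (-0.59), Psmc6 (-0.34), Psmd14 (-0.33) and Psmd6 (-0.25), with adjusted p-values of 0.334 to 0.599. The median was 0.52 for the 46 and 0.06 for all genes, and on a common sum 0.13 and -0.30.

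**Figure D4:**
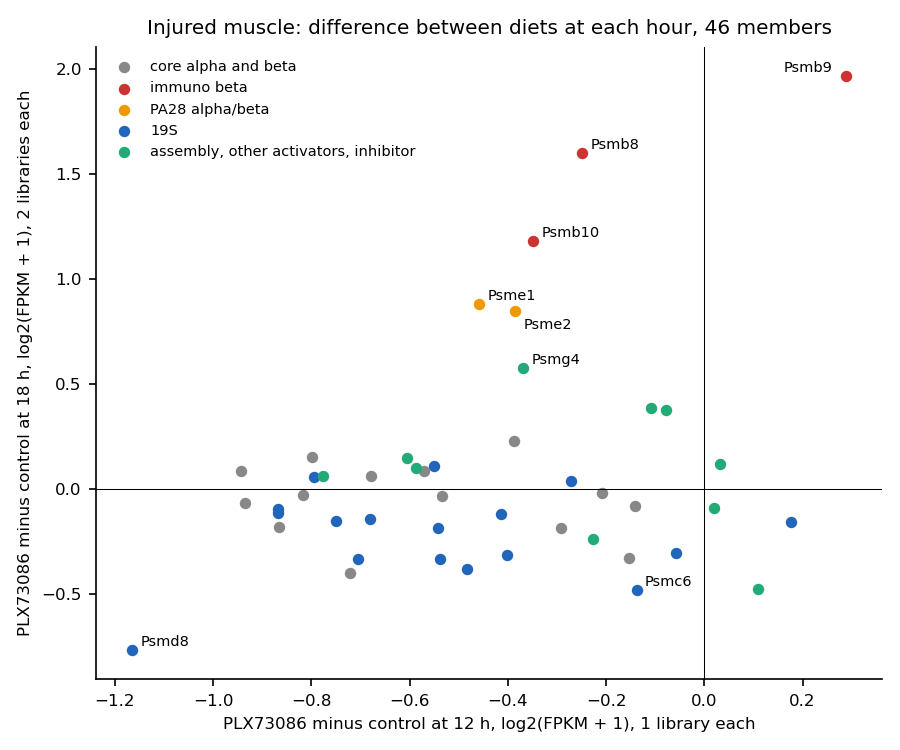
Difference between diets in injured muscle on the log2(FPKM + 1) scale at 12 h (x axis, 1 library each) and at 18 h (y axis, mean of 2 libraries each), with 1 point per gene coloured by role. The 5 immunoproteasome genes lie between 0.85 and 1.97 at 18 h, and of them only Psmb9 is above 0 at 12 h.

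Between 12 h and 18 h with diet in the model, no proteasome gene passed the threshold in limma, and 0.0777% of all genes did. An unadjusted p under 0.05 was found for 3 of 46 genes, and for 2279 of all 11578. The change was positive for 45 of 46 genes, with a median of 0.32 when that of all genes was 0.01. The largest were Psmb9 (0.72), Psmb8 (0.52), Psmg3 (0.50) and Psmb10 (0.49), with adjusted p-values of 0.230 to 0.481. Psme4 was the one negative (-0.40, adjusted p = 0.325), and after it Psmf1 (0.04), Psmd11 (0.07) and Psmd12 (0.07) were the smallest. These values rested on single 12 h libraries: without that of PLX73086 the median was 0.03, and without that of the control 16 of the 46, or 34.8%, were called higher, against 7.99% of all genes in that fit.

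In mdx muscle after 6 months of diet, no proteasome gene differed by the same test, where 0.157% of 10197 genes passed. The unadjusted p was under 0.05 for 3 of the 46 and for 1648 of all genes. The median change was 0.00 for the 46, as for all genes. Psmb10 read 13.8, 12.2 and 13.1 FPKM with PLX73086 and 7.22, 11.1 and 11.2 FPKM in controls (log2 change 0.39, SE 0.16, adjusted p = 0.294). Psme2 read 32.1, 29.8 and 36.8 FPKM against 21.2, 29.2 and 26.3 FPKM (0.36, SE 0.14, adjusted p = 0.278). Psme4 read 46.8, 42.9 and 42.0 FPKM against 68.3, 53.5 and 48.3 FPKM (-0.35, SE 0.14, adjusted p = 0.278). In these 3 genes and in Psmc6 (87.2 to 88.6 FPKM against 90.1 to 105 FPKM) the diets did not overlap. That is 2 of 46 upwards and 2 downwards, or 4.35% each way, against 11.4% and 11.6% of all genes.

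Psmb8 and Psmb9 overlapped between the diets of mdx muscle. Psmb8 read 4.70, 4.04 and 2.87 FPKM with PLX73086 and 2.36, 8.10 and 4.84 FPKM in controls (log2 change -0.23, SE 0.34, adjusted p = 0.768). Psmb9 read 3.27, 2.06 and 1.78 FPKM against 1.68, 4.67 and 3.19 FPKM (-0.27, SE 0.28, adjusted p = 0.665). Both were highest in control replicate 2, a library with 89.8 FPKM of leukocyte and 507 FPKM of macrophage markers, when the other 5 held 17.2 to 34.3 FPKM and 69.1 to 162 FPKM. Psme1 read 33.1, 32.1 and 30.6 FPKM against 29.3, 37.4 and 31.9 FPKM, again highest in that library, with a change of -0.03 (adjusted p = 0.901). Tap1, across the shared promoter from Psmb9, read 3.19 FPKM there and 0.817 to 1.33 FPKM in the other 5. The part of these markers in the values was not tested.

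The constitutive catalytic subunits overlapped between the diets of mdx muscle. Psmb5 read 166, 193 and 232 FPKM with PLX73086 and 164, 173 and 182 FPKM in controls (0.17, SE 0.13, adjusted p = 0.554). Psmb6 read 174, 203 and 242 FPKM against 203, 201 and 210 FPKM (0.00, adjusted p = 0.997), and Psmb7 338, 353 and 400 FPKM against 398, 382 and 398 FPKM (-0.11, adjusted p = 0.576). Of the other genes, Psmg1 (0.23) and Psmd8 (0.21) had the next largest positive changes and Psmc6 (-0.16) the fourth most negative, with adjusted p-values of 0.388 to 0.557.

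The 4 resident gates have 1 library each and no replicate check. Psmg4, a chaperone of core assembly, was the only proteasome gene past 2-fold on FPKM + 1 as deposited in any of the 4 comparisons. It read 11.1 FPKM in the MHCII- GFP+ gate and 29.2 to 30.4 FPKM in the other 3. On a common sum per library Psmc6 also passed, as lower in MHCII+ within GFP+. One gene past 2-fold higher in MHCII+ within GFP+ is 2.17% of 46, where 2.28% of all genes were higher and 1.42% lower past 2-fold. For GFP+ against GFP- within MHCII-, 1 gene lower compares with 2.32% of all genes lower and 2.51% higher. The MHCII- GFP+ gate also had the lowest estimated depth, 0.708 of that of the MHCII+ GFP- gate, and the lowest sum of FPKM, 466142 against 483071 to 550454. Its log2 difference from the other 3 gates had a rank correlation across genes with transcript length of 0.36 over the 46 and 0.32 over 11056 genes. Within MHCII+ no gene was past 2-fold between GFP states, where 1.46% of all genes were, nor between MHCII states within GFP-, where 1.71% were.

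The 5 immunoproteasome genes were higher in MHCII+ than in MHCII- cells in both GFP states, short of 2-fold, except that Psmb10 within GFP- differed by 0.04 on the log2 scale and by -0.02 on a common sum per library. Psmb8 read 80.0 FPKM in MHCII+ GFP+, 65.8 in MHCII+ GFP-, 57.3 in MHCII- GFP- and 40.5 in MHCII- GFP+. Psmb9 ran in the same order, with 38.5, 36.1, 27.3 and 19.3 FPKM, as did Psmb10 except that MHCII- GFP- stood close to MHCII+ GFP- (44.2, 41.4, 40.2 and 25.7 FPKM). Psme1 read 177, 152, 113 and 134.5 FPKM and Psme2 71.6, 68.2, 64.0 and 55.1 FPKM in that order of gates. The median difference of the 5 was 0.76 on the log2 scale within GFP+ and 0.20 within GFP-, and that of all genes was 0.02 and -0.01. On a common sum per library it was 0.54 and 0.14, and that of all genes -0.20 and -0.06. Of the 7 constitutive Psmb core subunits, 6 were also higher in MHCII+ within GFP+ (median 0.42 on FPKM). Within GFP- it was 3 of 7 (median -0.03). The gates select on MHCII, and the MHCII+ gates also held more B cell markers (36.3 and 41.1 FPKM against 3.23 and 6.27) and dendritic cell markers (176 and 222 FPKM against 48.0 and 129), the part of which was not tested.

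Several other genes stood apart in the MHCII- GFP+ gate. Psmb5, Psmb6 and Psmb7 read 30.9, 39.7 and 63.4 FPKM there and 40.8 to 46.9, 60.3 to 65.2 and 66.8 to 69.1 FPKM in the other 3. Psmc6 was higher there, at 60.6 FPKM against 32.7 to 35.4 FPKM, as were Psme4 (21.6 against 12.2 to 15.0 FPKM), Psma3 (88.5 against 62.9 to 66.6 FPKM) and Psmd12 (36.7 against 25.4 to 29.8 FPKM). Psmg3 was lower in MHCII+ GFP- (5.76 FPKM) than in MHCII- GFP- (9.75 FPKM), a difference of -0.67, and read 5.79 FPKM in MHCII- GFP+ and 7.10 FPKM in MHCII+ GFP+. Psmg1 (-0.23) and Psmd1 (-0.21) followed it in that comparison. Within MHCII+ the largest differences between GFP states were 0.30 for Psmg1, 0.28 for Psmb8 and 0.27 for Psmd10 upwards and -0.26 for Psmb1, -0.24 for Psmd6 and -0.22 for Psma5 downwards.

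In infiltrating cells, proteasome transcripts were highest at day 2. From day 2 to day 4, 41 of the 46 genes were lower, with a median of -0.39 on the log2 scale when that of all genes was -0.03. From day 4 to day 6, 41 were again lower, with a median of -0.17 when that of all genes was 0.01. On a common sum per library these medians were -0.50 and -0.13, then -0.14 and 0.04. The core median read 112 FPKM at day 2, 67.0 and 85.8 FPKM in the 2 libraries of day 4 and 69.4 FPKM at day 6. Both day 4 libraries thus lay below day 2. The days have 1, 2 and 1 libraries, so this was described and not tested. The titles of these libraries also carry an amount, the meaning of which they do not give. It was largest at day 2, smaller in both libraries of day 4 and smallest at day 6. Day and this amount thus changed together, and the part of the amount in these differences was not tested.

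Past 2-fold lower than at day 2 were 2 genes, by the mean of both day 4 libraries, each of which lay below day 2. That is 4.35% of 46, where 4.99% of all genes were lower by this rule, and none was higher, where 5.67% were. Psmd11 and Psmd3, which both belong to the lid of the regulatory particle, read 39.6 and 66.7 FPKM at day 2, 18.8 and 32.5 FPKM in day 4 replicate 1, 11.5 and 29.0 FPKM in replicate 2 and 15.3 and 29.3 FPKM at day 6. Psmd8 followed with 178, 92.6, 87.7 and 78.1 FPKM. Replicate 2 of day 4 gave lower values for long transcripts: over the 46 genes its log2 difference from replicate 1 had a rank correlation of -0.60 with transcript length, and over 9252 genes of -0.63. Psmd11 had the most negative difference of the 46 between the 2 libraries, at -0.66, and Psmg4 the most positive, at 0.56. From day 4 to day 6 no gene passed 2-fold, where 1.38% of all genes did, and the most negative differences were those of Psmb6 (147 to 104 FPKM), Psmd10 (16.2 to 12.3 FPKM) and Psma2 (98.7 to 76.8 FPKM).

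The immunoproteasome genes were lower by a smaller median than the other 41, for which it was -0.47. Psmb8 read 234 FPKM at day 2, 172 and 231 FPKM at day 4 and 189 FPKM at day 6. Psmb9 read 101, 82.4, 104 and 92.8 FPKM in the same order, Psme1 253, 212, 276 and 225 FPKM, and Psme2 152, 115, 146 and 117 FPKM. For Psmb9 and Psme1 the 2 libraries of day 4 lay on either side of day 2. Psmb8 and Psme2 were below day 2 in both, by little in replicate 2. Psmb10 was the lowest against day 2, with 159, 91.8, 120 and 93.1 FPKM. The median change of the 5 from day 2 to day 4 was -0.23, and it was -0.02 without replicate 1 of day 4 and -0.41 without replicate 2. The constitutive partners read 74.2, 53.3, 50.3 and 46.4 FPKM for Psmb5, 197, 141, 153 and 104 FPKM for Psmb6 and 142, 86.3, 97.9 and 77.7 FPKM for Psmb7. The share of the 5 genes in the 46 was accordingly 24.98% at day 2, 27.2% and 30.9% at day 4 and 30.6% at day 6.

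The assembly factors had 5 of 7 genes higher at day 4 than at day 2, with a median of 0.09, but this turned on replicate 2 of day 4. Without that library 3 of 7 were higher, with a median of -0.14, and without replicate 1 it was 4 of 7 and 0.32. Psmd10, a chaperone of the regulatory particle, read 11.6 FPKM at day 2 and 14.2 and 18.2 FPKM at day 4, and Psmg2 read 5.62 and then 7.14 and 8.72 FPKM. Psmd5 was next, at 5.13 and then 6.28 and 4.86 FPKM. All 11 non-ATPase subunits (median -0.61), 6 of 6 ATPases (-0.54) and 7 of 7 Psmb core subunits (-0.63) were lower, and were so without either library of day 4. Upwards from day 4 to day 6 stood Psme4 (0.19), Psme3 (0.13) and Psmd5 (0.06). Monocyte markers summed to 3366 FPKM at day 2 and 565 to 720 FPKM later, and macrophage markers to 7723 FPKM at day 2 and 13462 to 15801 FPKM later. The part of this shift in the lower values of the proteasome genes was not tested.

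**Figure D5:**
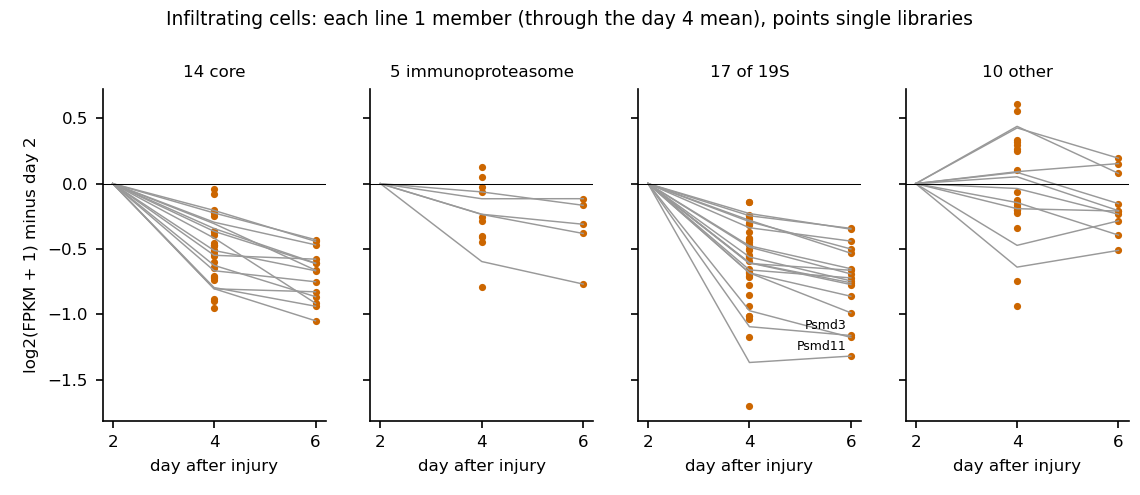
Change from day 2 on the log2(FPKM + 1) scale (y axis) by day after injury (x axis) in infiltrating cells, in 4 panels by role. Each line is 1 gene drawn through the mean of day 4, and points are single libraries. Core and regulatory genes lie below 0 at both days, with Psmd11 and Psmd3 lowest, and some assembly factors lie above 0 at day 4, more of them in replicate 2.

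Genes that work with the proteasome were counted in injured muscle from lists of pathways, in the model with both hours. In class I antigen processing, Tap1 and Nlrc5 rose. Tap1 read 36.4 and 31.5 FPKM with PLX73086 against 9.13 and 9.51 FPKM at 18 h and 16.7 against 14.03 FPKM at 12 h, so like Psmb9 it was higher at both hours (log2 change 1.25, SE 0.30, adjusted p = 0.0452). Nlrc5, the transactivator of class I genes, read 2.61 to 3.42 FPKM against 0.946 to 0.990 FPKM (log2 change 0.98, adjusted p = 0.0180). Of 12 interferon gamma response genes tested 7 rose, of 14 interferon response genes 13 rose, led by Irf7 (2.56), Ifit3 (2.51), Ifit1 (2.32) and Mx1 (2.17), and none of either list fell, when 5.42% of all genes were called higher. Leukocyte and monocyte markers moved the same way, with 10 of 10 and 8 of 8 positive and medians of 0.87 and 1.13, and their part was not tested. In these data the lists had been chosen with earlier results known, and medians over them were 0.93 and 2.01, beside -0.02 for all genes. Ifng, the gene of interferon gamma and a member of the first list, was too low to be tested. It read 0.01 FPKM in every PLX73086 library and 0.01 to 0.217 FPKM in controls.

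In the other 5 lists all calls in injured muscle were downwards, and are to be read against the 6.23% of all genes called lower. Each list that held a call had a larger share than that, in lists of 7 to 16 tested genes. Of 10 muscle ubiquitin ligases 2 fell, Trim63, the ligase MuRF1, from 1440 to 1867 FPKM in controls to 544 to 781 FPKM with PLX73086 (log2 change -1.30, adjusted p = 0.0229) and Trim54 (-1.36, adjusted p = 0.0154). Muscle fibre markers were lower by a like amount, 12 of 12 negative with 6 called and a median of -1.29, and their part in these changes was not tested. Of 9 ubiquitin supply and unfoldase genes 1 fell, the polyubiquitin gene Ubb (-0.72, adjusted p = 0.0342). Of 16 proteasome partners 3 fell, Zfand2a (-0.95, adjusted p = 0.0402), Zfand5 (-0.73, adjusted p = 0.0354) and Ubqln4 (-0.66, adjusted p = 0.0271), which is known to bring ubiquitinated proteins to the proteasome. Of 13 proteotoxic stress genes 3 fell, Bag3 (-0.95), Txnrd1 (-0.93) and Srxn1 (-0.71). None of 7 factors of proteasome gene transcription passed. Nfe2l1, which drives the constitutive subunits when proteasome activity is short, read 80.6 and 92.6 FPKM against 156 and 128 FPKM at 18 h and 113 against 153 FPKM at 12 h (-0.61, SE 0.16, adjusted p = 0.0544). Medians over these 5 lists lay between -0.22 and -0.40. In mdx muscle none of the tested genes of these 7 lists passed for diet, nor did Tap1.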

How the data were processed

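Messenger RNA libraries were sequenced as stranded, paired reads by the authors, per the labels' protocols. The values are FPKM as deposited by the authors, in 4 tables of 1 experiment each. Cufflinks, STAR, Bowtie and bcl2fastq, and mm10 as the genome, are named in the submitters' processing notes, with no versions, roles or order. Gene names that a spreadsheet had turned into dates (23 in the infiltrating and 27 in the injured table) and 2 overwritten entries of the resident table were left out. Depth is listed for infiltrating cells only, and elsewhere relative depth was estimated from the steps of values under 0.2 FPKM. With no counts, no counting intervals were given.

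Values were taken as log2(FPKM + 1), which understates changes of low genes. Genes were kept where their mean reached 1 FPKM and no value was missing, and were tested with limma 3.58.1 (R 4.3.3, trend, two-sided, Benjamini-Hochberg over all genes). The mdx model had diet, and the injured model diet and hour. All 10197 and 11578 genes entered the fits. Sorted cells were described by a 2-fold rule. Where day 4 enters, the rule took the mean of its 2 libraries and asked both to lie on the same side. The steps were tested on simulated data. The labels name a mouse for each whole-muscle library and give no batches. The p-values measure the spread between these libraries. In the injured model with both hours this spread also holds any difference of the diet effect between hours.

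The members, pathway lists, marker lists and tests were chosen with earlier results of these data known. The count over the list of class I antigen processing is not reported here. Named genes were the 5 immunoproteasome and 3 constitutive catalytic genes, those past the threshold or, where none was, the 4 largest changes each way, in sorted cells those past 2-fold and the 3 largest differences each way, the 3 highest and lowest levels per table, and up to 4 list members past the threshold. Alternatives were a pseudocount of 0.1, other filters (none, or 5 FPKM), rescaling to a common sum or by median ratios, a 1.5-fold rule, a replicate block, a reporter covariate, 18 h alone and leaving out each library. Coordinates and promoters came from RefSeq, whose GRCm38.p6 assembly is mm10. Python 3.11.15 with numpy 2.4.6, pandas 2.3.3 and matplotlib 3.10.9 was used.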

Additional observations from a re-analysis of the deposited data

How the results depend on the processing

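No alternative reversed a direction past the threshold. For diet in injured muscle, where 1 proteasome gene was called higher and 1 lower, both counts were 0 without the filter on low values and 0 with the replicate block (adjusted p = 0.0863 for Psmb9 and 0.0574 for Psmd8). The higher count was 8 after rescaling to a common sum, and 18 h alone gave 6 and 2. Leaving out each library gave 0 to 6 higher and 0 to 2 lower: 0 and 0 without any 1 of the 4 libraries of 18 h, 6 and 2 without either library of 12 h. For hours after injury, leaving out each library gave 0 to 16 higher, the 16 without the control of 12 h (7.99% of all genes in that fit). The difference between hours cannot be estimated without a 12 h library. In mdx muscle the counts stayed at 0 under every alternative run. Past 1.5-fold, MHCII+ against MHCII- within GFP+ gave 5 higher and 1 lower of 46 (10.9% and 2.17%, against 9.97% and 9.93% of all genes), within GFP- 1 lower (2.17% against 1.64%), GFP+ against GFP- within MHCII- 2 higher and 5 lower (4.35% and 10.9% against 12.4% and 11.6%), and day 4 against day 2 16 lower (34.8% against 14.1%). At 2-fold, rescaling gave 1 lower in the first of these comparisons, where none was lower on FPKM as deposited. The cause of these shifts was not tested. The first characters of the mouse titles were used as the replicate block. Deviations of libraries that share them correlated at 0.29, 0.36 and 0.06 in mdx muscle, when the other pairs between diets lay between -0.32 and 0.02, and each library correlated best with the one that shares its prefix. This is a hint from the data, but as 1 value was under 0.1 and the labels do not explain the prefixes, they were not taken as pairs. At 18 h, with 2 such pairs, the value was 0.28, and -0.28 across them. Deviations within a group sum to 0, so the second of these values is fixed by the first. In mdx muscle positive values likewise force lower ones in other pairs. The adjusted p of Psmb9 ranged from 0.00472 to 0.257 and that of Psmd8 from 0.0211 to 0.107 over the alternatives. Without counts, differences among genes of a few FPKM, such as Psmb8 and Psmb9 in mdx muscle, have unknown precision.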
